A study of Mus musculus with 4 samples.

Results

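Bcl2 family genes and Fas were followed across the germinal center (GC) B cells, other B cells and T cells of mouse spleen. The set holds 8 genes of the 31053 in the count tables, taken by name and not for their values, and comprises Bcl2, Bcl2l1, Mcl1, Bcl2l11, Bax, Bak1, Bbc3 and Fas. All 8 were in the tables under 1 Ensembl identifier each. On the main settings, all 8 passed the minimum of 20 UMIs in each comparison with calls, except Bcl2 in 1 of the genotype comparisons. No minimum was set where prememory cells were compared with non-GC B-like cells.

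Mice were immunized with sheep red blood cells, and on day 10 their splenic B220+IgD- cells were sorted and profiled by droplet single-cell RNA sequencing of transcript 3' ends. There was 1 library from 1 mouse for each of 4 genotypes, all 8-week-old females on a C57BL/6J background, and all carried Cγ1-cre, a Cre recombinase expressed from the immunoglobulin γ1 constant region, so that recombination starts in B cells responding to antigen. WT carried Cγ1-cre alone, C was heterozygous for a floxed Crebbp allele, K for a floxed Kmt2d allele, and CK for both. Crebbp and Kmt2d encode a histone acetyltransferase and a histone methyltransferase that act at enhancers. Since 1 mouse stood for each genotype, no difference between genotypes has a replicate check and none was tested.

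Apoptosis in lymphocytes is set off along 2 routes. In the mitochondrial route, Bcl2, Bcl2l1 (Bcl-xL) and Mcl1 hold back the pore-forming effectors Bax and Bak1, and BH3-only proteins such as Bcl2l11 (Bim) and Bbc3 (Puma) release them. In the receptor route, the cell surface protein Fas is engaged by Fas ligand and activates caspase 8. GC B cells are known for high Fas, low Bcl2 and a need for Mcl1, and most of them die unless they are selected in the light zone.

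The deposited annotation named 9804 GC B cells as early centroblasts (early CB), centroblasts (CB), cells in transition from CB to centrocytes (CB-to-CC), centrocytes (CC), recycling cells and prememory cells. WT contributed 1227 of these cells, C 2041, K 2583 and CK 3953. All cells were clustered together here, and those outside the annotation were named by cluster from fixed markers as GC B-like, non-GC B-like, plasma-like, CD4 T-like, CD8 T-like and other T-like, and the rule for the names was set after the clusters were seen. Of the 2893 unannotated GC B-like cells, 2856 had 2500 or more detected genes, a depth at which the annotation ends. T-like cells were present although the sort was on B220, and their 7 T cell markers summed to between 6587 and 12258 CPM (counts per 1000000 UMIs), against 8.50 to 51.0 CPM in early CB, CB, CB-to-CC and CC. Counts were summed over the cells of a class in a library and divided by the total of that sum to give CPM. Intervals in parentheses are 95% intervals, which cover counting error only.

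Libraries were similar in total depth, with totals of 33270825 to 39803865 UMIs, the molecular tags that each stand for a single captured transcript, and a Scrublet doublet share of 3.32% to 5.01%. Depth per cell differed, with median UMIs per barcode of 2948, 2292, 3201 and 2202 in WT, C, K and CK. In CC the medians were 4741, 3498, 3811 and 2670. Of 39009 barcodes, 143 sequences occurred in more than 1 library, and 69 annotated cells carried such a barcode. The library labelled K stood apart in GC B-like, non-GC B-like and CD8 T-like cells. Of 27 named clusters, 4 consisted of 89.8% to 96.1% K cells and together held 45.1% of the K cells in named clusters. Over all genes, K differed from WT by a median log2 ratio of -0.15 in CB and -0.14 in CC, and the main K ratios are therefore also given relative to that shift. Within annotated GC B cells, Crebbp stood at 68.4, 43.0, 38.6 and 38.0 CPM in WT, C, K and CK, and Kmt2d at 18.5, 21.3, 9.85 and 15.1 CPM in the same order. Crebbp was thus low in K as well, which carries no floxed Crebbp allele, and in T-like cells K had the lowest Crebbp, at 48.2 CPM against 78.5 in WT. Reads from 3' ends need not come from the deleted exons, so these values do not check the deletion.

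Upstream sequences are shown for the pair of members whose levels ran most opposite to each other across cell classes, Bcl2 and Fas, and for Bak1, whose levels ran most like those of Fas. They are the 250 bases before the start annotated in RefSeq (GRCm38.p6), read 5′ to 3′ on the strand of the gene, and all 8 members had such a window. For the genes shown, these starts differ from those of the gene coordinates given below, which are from GENCODE vM21. The Bak1 window lies inside its GENCODE gene model of 27019810 to 27029009. Capitals mark matches on either strand to any of 5 motifs, which were the GC box GGGCGG, the cAMP response element core TGACG, the palindrome TTCNNNGAA read by BCL6 and STAT factors, the NF-κB site and the p53 half-site.
Bcl2, chr1:106714291-106714540, minus strand: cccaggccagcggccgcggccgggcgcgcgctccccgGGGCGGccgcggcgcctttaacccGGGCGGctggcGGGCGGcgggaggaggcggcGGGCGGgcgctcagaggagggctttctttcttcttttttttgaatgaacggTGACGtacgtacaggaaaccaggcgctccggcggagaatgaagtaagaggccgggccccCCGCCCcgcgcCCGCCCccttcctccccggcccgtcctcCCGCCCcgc
Fas, chr19:34290409-34290658, plus strand: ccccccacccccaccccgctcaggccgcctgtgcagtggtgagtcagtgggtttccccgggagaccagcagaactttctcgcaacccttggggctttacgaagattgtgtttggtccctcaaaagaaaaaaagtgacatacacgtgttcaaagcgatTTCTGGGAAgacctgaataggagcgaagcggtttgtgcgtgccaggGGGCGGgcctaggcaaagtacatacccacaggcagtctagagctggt
Bak1, chr17:27028628-27028877, minus strand: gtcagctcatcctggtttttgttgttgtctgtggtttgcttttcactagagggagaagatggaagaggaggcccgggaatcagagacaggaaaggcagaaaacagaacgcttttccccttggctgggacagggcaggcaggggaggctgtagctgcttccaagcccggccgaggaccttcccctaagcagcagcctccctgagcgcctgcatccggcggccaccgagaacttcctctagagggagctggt
The Bcl2 window held 7 GC boxes and 1 cAMP response element core, which began 107 bases before the start. The Fas window held 1 GC box and 1 TTCNNNGAA palindrome, which began 93 bases before the start, and the Bak1 window held none of the 5 motifs. No match to one motif overlapped a match to another in these windows. Among 32851 such windows of all genes, 32.7% held a GC box, 17.8% the cAMP response element core, 7.02% the palindrome, 7.25% an NF-κB site and 7.13% a p53 half-site. These matches describe letters only.

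Levels of each member were first ordered over the 12 cell classes, beginning with the 3 protective members. Bcl2 (ENSMUSG00000057329, chromosome 1, 106538178 to 106714274, minus strand) blocks Bax and Bak1 and is kept up in resting lymphocytes. Its level was highest in CD8 T-like cells, at 359, 395, 336 and 368 CPM in WT, C, K and CK. Prememory cells followed with 208, 190, 162 and 169 CPM, and non-GC B-like cells with 182, 196, 141 and 145 CPM. Those 2 classes overlapped in range, whereas both lay apart from CD8 T-like cells above and from CD4 T-like cells (121 ± 10.4 CPM, mean ± SD, n = 4 libraries) below. In CB, Bcl2 was at 1.04, 12.5, 2.27 and 5.09 CPM, from 1, 26, 8 and 24 UMIs. CB was therefore at the bottom of the order together with early CB, CB-to-CC, unannotated GC B-like and recycling cells, none of which was apart from its neighbour.

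Mcl1 (ENSMUSG00000038612, chromosome 3, 95658788 to 95663176, plus strand), a short-lived protector that GC B cells depend on, was highest in non-GC B-like cells, at 886, 934, 660 and 960 CPM in WT, C, K and CK. Prememory cells had 723, 735, 652 and 781 CPM, below the non-GC B-like value in each library. CC came next with 512, 564, 389 and 561 CPM, and the prememory range lay wholly above that of CC. Mcl1 was lowest in CD8 T-like cells, at 259, 262, 189 and 276 CPM, the class in which Bcl2 was highest. Within each of the other classes below CC, neighbouring ranges overlapped, in part because K was the lowest library in every class.

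Bcl2l1 (ENSMUSG00000007659, chromosome 2, 152780668 to 152831728, minus strand) encodes Bcl-xL, a protector induced on activation. Its level was low throughout, with class means between 3.68 CPM in non-GC B-like cells and 17.0 CPM in other T-like cells. No neighbouring pair in its order of 12 classes was apart in range. Non-GC B-like cells held 3.92, 3.47, 1.46 and 5.88 CPM, and CD4 T-like cells 19.6, 17.7, 15.2 and 15.2 CPM, which did not overlap.

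The BH3-only members differed from each other in where they were highest. Bcl2l11 (ENSMUSG00000027381, chromosome 2, 128126038 to 128162547, plus strand) encodes Bim, the BH3-only protein that limits the life of many lymphocytes. It was highest in plasma-like cells, at 81.0, 63.4, 96.6 and 119 CPM in WT, C, K and CK, apart from all other classes, of which CB-to-CC was next with 39.1, 28.0, 21.1 and 30.01 CPM. The plasma-like sums held 38 to 89 Bcl2l11 UMIs from 45 to 72 cells per library. All other classes overlapped with their neighbours in the order.

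Bbc3 (ENSMUSG00000002083, chromosome 7, 16308393 to 16318205, plus strand) encodes Puma, a BH3-only protein induced by p53. Its level was highest in CD8 T-like cells, at 24.4, 28.4, 30.4 and 27.2 CPM, and apart from CC, the next class, at 13.1, 21.8, 19.6 and 19.2 CPM. CB held 11.4, 7.70, 9.10 and 9.34 CPM. In prememory cells only 1, 4, 0 and 2 Bbc3 UMIs were counted, and in recycling cells 1 UMI in all.

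The 2 effectors differed in the class at the top of their order. Bax (ENSMUSG00000003873, chromosome 7, 45461697 to 45466898, minus strand) was highest in prememory cells, at 267, 301, 324 and 338 CPM in WT, C, K and CK, above recycling cells in 4 of 4 libraries although the ranges overlapped. It was lowest in plasma-like cells, at 73.8, 85.1, 68.4 and 69.6 CPM, apart from the CD8 T-like cells above them. The total behind CPM includes immunoglobulin UMIs, and immunoglobulin genes led the plasma-like cluster. Their part in the low Bax value was not tested. Bax shares exons on the same strand with the gene model Gm45808, which had 0 UMIs in all barcodes. Bak1 (ENSMUSG00000057789, chromosome 17, 27019810 to 27029009, minus strand) was highest in CB, at 107, 88.0, 93.2 and 72.8 CPM, and CB-to-CC at 93.8, 83.5, 92.6 and 88.8 CPM overlapped with it. The GC classes other than prememory lay above all T-like classes on average, and early CB, the lowest of them at 65.3 ± 4.91 CPM, was apart in range from CD4 T-like cells at 53.6 ± 4.66 CPM. Prememory cells held 51.1, 56.3, 40.5 and 41.3 CPM of Bak1.

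Fas (ENSMUSG00000024778, chromosome 19, 34290666 to 34327772, plus strand), the death receptor, separated GC B cells from all other classes. Early CB held 225, 239, 256 and 244 CPM in WT, C, K and CK, and CB held 193, 196, 218 and 214 CPM. CB-to-CC were at 209, 212, 213 and 200 CPM and CC at 219, 225, 208 and 205 CPM. Unannotated GC B-like cells, which were deeper, had 165, 156, 162 and 150 CPM and remained apart from CD4 T-like cells at 63.6, 76.6, 51.2 and 61.6 CPM. At the bottom were prememory cells with 24.6, 18.2, 30.4 and 26.3 CPM and non-GC B-like cells with 20.04, 19.5, 16.4 and 24.6 CPM, whose ranges overlapped. The sort did not use Fas.

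**Figure D1:**
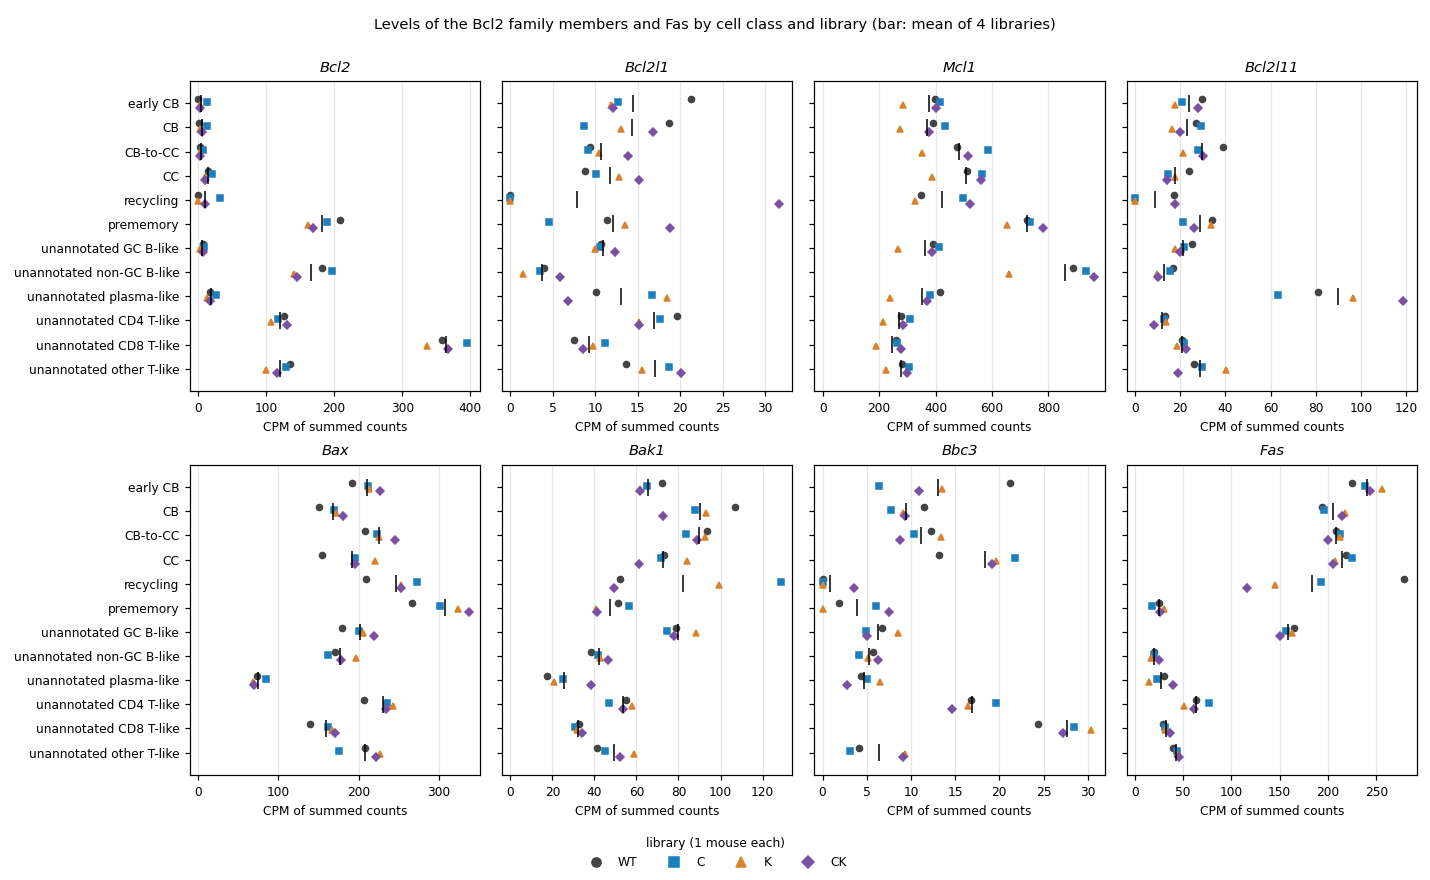
Level of each member in CPM of summed counts (x axis) in 12 cell classes (y axis), with 1 point for each of the 4 libraries and a bar at their mean. Fas is between 150 and 256 CPM in the GC classes with many cells and at most 76.6 CPM in T-like, plasma-like, non-GC B-like and prememory cells, and Bcl2 is at most 20.7 CPM in those GC classes.

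Annotated GC B cells were then set against non-GC B-like cells within each library, which asks what B cells of the GC change in this pathway. A gene was called where its ratio of CPM passed 1.5-fold in the same direction in all 4 libraries. Cell names come from the expression of the same cells, so these are descriptions with no test. Of the 8 members, 5 were higher and 2 lower, while 13.5% of 9777 genes were called higher and 13.9% lower. Fas had the highest log2 ratio, 3.28, 3.35, 3.69 and 3.06 in WT, C, K and CK (mean 3.35 ± 0.26, SD, n = 4 libraries). Bcl2l1 was higher by a mean log2 ratio of 1.82 ± 0.80, Bbc3 by 1.17 ± 0.30, Bak1 by 0.94 ± 0.19 and Bcl2l11 by 0.94 ± 0.24. The higher genes were thus 1 protector, both BH3-only members, 1 effector and the receptor. Bcl2 was lower by a mean log2 ratio of -3.54 ± 0.72 and Mcl1 by -0.91 ± 0.11. Bax differed little, with a mean log2 ratio of 0.22 ± 0.13. With cells under 5% mitochondrial UMIs only, Bcl2l11, Bak1 and Bbc3 were no longer called. With cells thinned to 2000 UMIs, Mcl1, at -0.66, and Bbc3 were not called. Thinning left out cells with fewer UMIs than that. It kept 1176 of 1828, 845 of 3242, 370 of 1399 and 215 of 2074 non-GC B-like cells of WT, C, K and CK. It therefore compared the deeper cells and not the same cells at equal depth. With cells of 2500 or more genes added, Bcl2l11 and Bbc3 were not called. In the deeper unannotated GC B-like cells, Bbc3 was at 6.31 ± 1.70 CPM, against 5.28 ± 0.90 CPM in non-GC B-like cells.

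Bcl2 in all annotated cells fell into 2 levels, with 24.2 CPM in WT and 25.9 in C against 7.96 in K and 7.98 in CK. Prememory cells, which carry the most Bcl2 of the annotated subtypes, made up 11.8% and 11.02% of annotated cells of WT and C but 3.60% and 2.91% of those of K and CK. With prememory cells left out, Bcl2 was at 6.68, 12.4, 4.28 and 5.15 CPM, and its log2 ratio to non-GC B-like cells fell to a mean of -4.65. The same 7 members were called without them.

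Prememory cells were close to non-GC B-like cells in Bcl2, Mcl1, Bak1 and Fas. By clustering, 561 of the 578 annotated prememory cells fell among the non-GC B-like cells, and their 7 GC B markers summed to between 114 and 206 CPM, against 107 to 164 CPM in non-GC B-like cells and 1662 to 2014 CPM in CC. Compared with CC in the same library, prememory cells had higher Bcl2 by a mean log2 ratio of 3.75 ± 0.40 and lower Fas by -3.13 ± 0.37, in 4 of 4 libraries each. Bbc3 was also called lower, at -1.73 ± 0.79, with the K sum of 0 UMIs set at 3 UMIs, which makes its value a bound. The counting interval of the Bbc3 ratio lay below 0 in WT, C and K and reached 0.57 in CK. Thus 1 member was higher and 2 were lower, against 7.90% of 6823 genes higher and 6.93% lower. Mcl1 (0.53 ± 0.16) and Bax (0.69 ± 0.12) were above CC in 4 of 4 libraries, and Bak1 (-0.62 ± 0.30) below in 4 of 4, without passing 1.5-fold in each. The Bak1 interval excluded 0 in K alone.

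Set against unannotated non-GC B-like cells, prememory cells differed by mean log2 ratios of 0.14 ± 0.13 for Bcl2, 0.30 ± 0.43 for Fas, 0.15 ± 0.32 for Bak1 and -0.24 ± 0.15 for Mcl1. Bax was higher in each library, with a mean log2 ratio of 0.80 ± 0.14, and its range of 267 to 338 CPM in prememory cells did not overlap the 162 to 196 CPM of non-GC B-like cells. Bcl2l11 had a mean of 1.17 ± 0.56, on 7 to 18 UMIs per library in prememory cells, and its interval lay above 0 in WT and K but reached below 0 in C and CK. Bcl2l1 had the highest mean, 1.70 ± 1.16, on 3 to 6 UMIs per library in prememory cells, and its interval lay above 0 in K alone. The 0 to 4 Bbc3 UMIs per library in prememory cells were too few to place it.

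CC of the light zone were then compared with CB of the dark zone. Of 8 members, 1 was called higher in CC and none lower, while 5.59% of 7674 genes were higher and 9.11% lower. The called member was Bcl2, which rose from 1.04 (0.0263 to 5.79), 12.5 (8.17 to 18.3), 2.27 (0.982 to 4.48) and 5.09 (3.27 to 7.58) CPM in CB to 15.3 (10.2 to 22.1), 20.7 (14.7 to 28.3), 10.8 (7.11 to 15.7) and 9.60 (6.27 to 14.1) CPM in CC of WT, C, K and CK. The log2 ratios were 3.88, 0.73, 2.25 and 0.91, and the interval for C, -0.03 to 1.502, included 0. Without cells called doublets by Scrublet no member was called, since Bcl2 then had too few UMIs, and doublets held 10 of the 26 Bcl2 UMIs of CB in C and 9 of the 28 in CC of WT. Markers of non-GC B cells, which are rich in Bcl2, were also higher in CC. They summed to 633, 674, 416 and 498 CPM in CC of WT, C, K and CK, against 181, 238, 130 and 177 CPM in CB. The part of other cells or their RNA in the Bcl2 rise was not tested.

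Mcl1 was higher in CC in all 4 libraries, by log2 ratios of 0.39, 0.38, 0.50 and 0.57 with intervals above 0, short of 1.5-fold. Bbc3 was higher in CC by 1.5, 1.11 and 1.04 in C, K and CK but by 0.20 (-0.89 to 1.38) in WT, and without the WT library it was called as well. Fas changed by 0.18, 0.20, -0.07 and -0.06, each with an interval that includes 0. Bak1 was lower in 4 of 4 libraries, by a mean log2 ratio of -0.31 ± 0.17, and Bax higher in 4 of 4 by 0.18 ± 0.14. The interval excluded 0 in WT alone for Bak1 and in K alone for Bax. Bcl2l11 and Bcl2l1 moved in different directions between libraries, with means of -0.38 ± 0.47 and -0.26 ± 0.58.

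**Figure D2:**
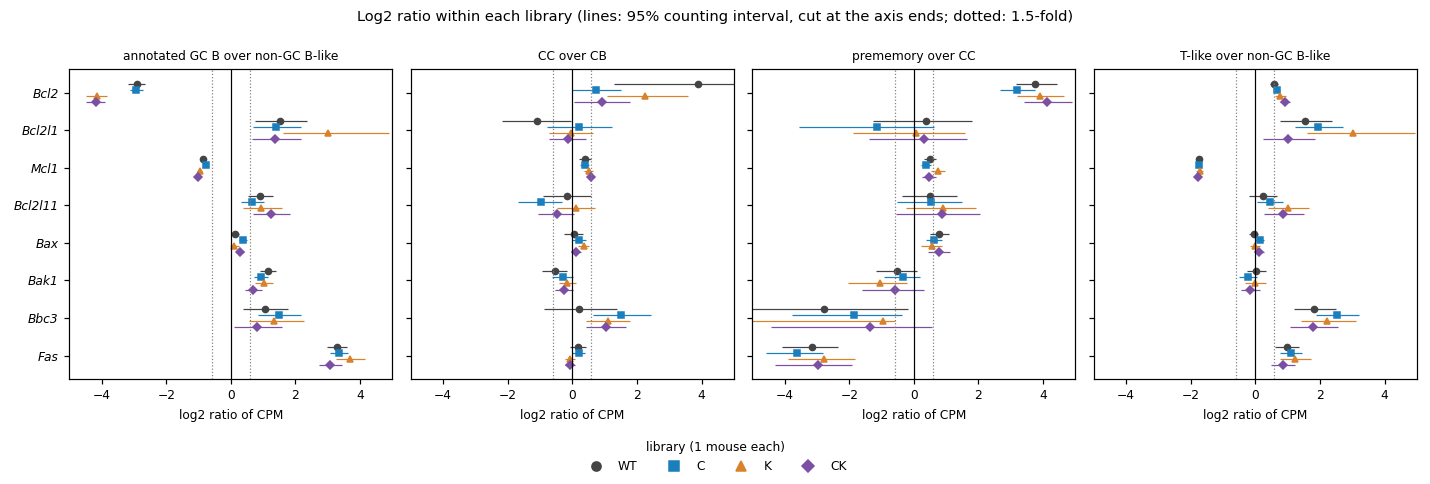
Log2 ratio of CPM (x axis) of each member (y axis) for 4 comparisons within each library, with 95% counting intervals and dotted lines at 1.5-fold. Fas is above 3 in GC B over non-GC B-like cells and below -2.7 in prememory over CC in every library, whereas in CC over CB it lies between -0.07 and 0.20.

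Other genes of the apoptosis pathway, a list of 30 comprising 11 relatives of Bcl2, 7 genes of the receptor route and 12 genes around the caspases, were counted in the same way. From CB to CC, 21 had enough UMIs, 4 were higher and 1 lower, and their median log2 ratio was -0.04 against -0.07 for all genes, of which 5.59% were higher and 9.11% lower. The 3 highest were Bcl2a1d (1.92 ± 0.50) and Bcl2a1b (1.89 ± 0.49), protective relatives of Bcl2, and Birc3 (1.34 ± 0.28), an inhibitor of apoptosis and NF-κB target. Bcl2a1b and Bcl2a1d are near copies of each other, so their division of reads is uncertain. The 3 lowest were Birc5 (-5.64 ± 0.20), which encodes survivin and is made in dividing cells, Pmaip1 (-0.91 ± 0.46), the BH3-only protein Noxa, and Cycs (-0.58 ± 0.05), cytochrome c. Bcl2a1b thus stood at 73.8, 53.9, 61.1 and 42.0 CPM in CB and at 176, 203, 237 and 229 CPM in CC of WT, C, K and CK, with no overlap. In GC B over non-GC B-like cells 8 of 24 were higher and 1 lower, where all genes gave 13.5% and 13.9%. In prememory cells over CC none of 17 was higher and 4 were lower, where all genes gave 7.90% and 6.93%.

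Along the pseudotime of the annotated cells, positions were cut into 5 successive parts by the share of WT cells already passed. Between the first and the last part, 1 member was called higher and none lower, against 6.18% of 7584 genes higher and 10.9% lower. Bcl2 went from 1.33, 8.28, 3.41 and 3.86 CPM to 107, 95.9, 37.7 and 31.5 CPM in WT, C, K and CK. Mcl1 went from 403, 451, 294 and 407 to 632, 671, 464 and 623 CPM, a mean log2 ratio of 0.62 ± 0.04. Fas went from 214, 207, 223 and 213 to 98.3, 148, 167 and 178 CPM, a mean of -0.57 ± 0.38, and was lower in each library. In CPM, both Bcl2 and Fas were spread more widely over the libraries in the last part than in the first.

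The last part differed between libraries in its cells as well, since prememory cells were 47.8%, 39.9%, 18.8% and 12.7% of it in WT, C, K and CK. With prememory cells left out, Bcl2 in the last part was at 32.7, 30.6, 12.5 and 12.2 CPM and Fas at 150, 226, 193 and 199 CPM. No member was then called. The mean log2 ratio of Fas became -0.18, and Bcl2, at 2.51, had too few UMIs in 1 or more libraries. Mcl1 was then higher by 0.44.

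**Figure D3:**
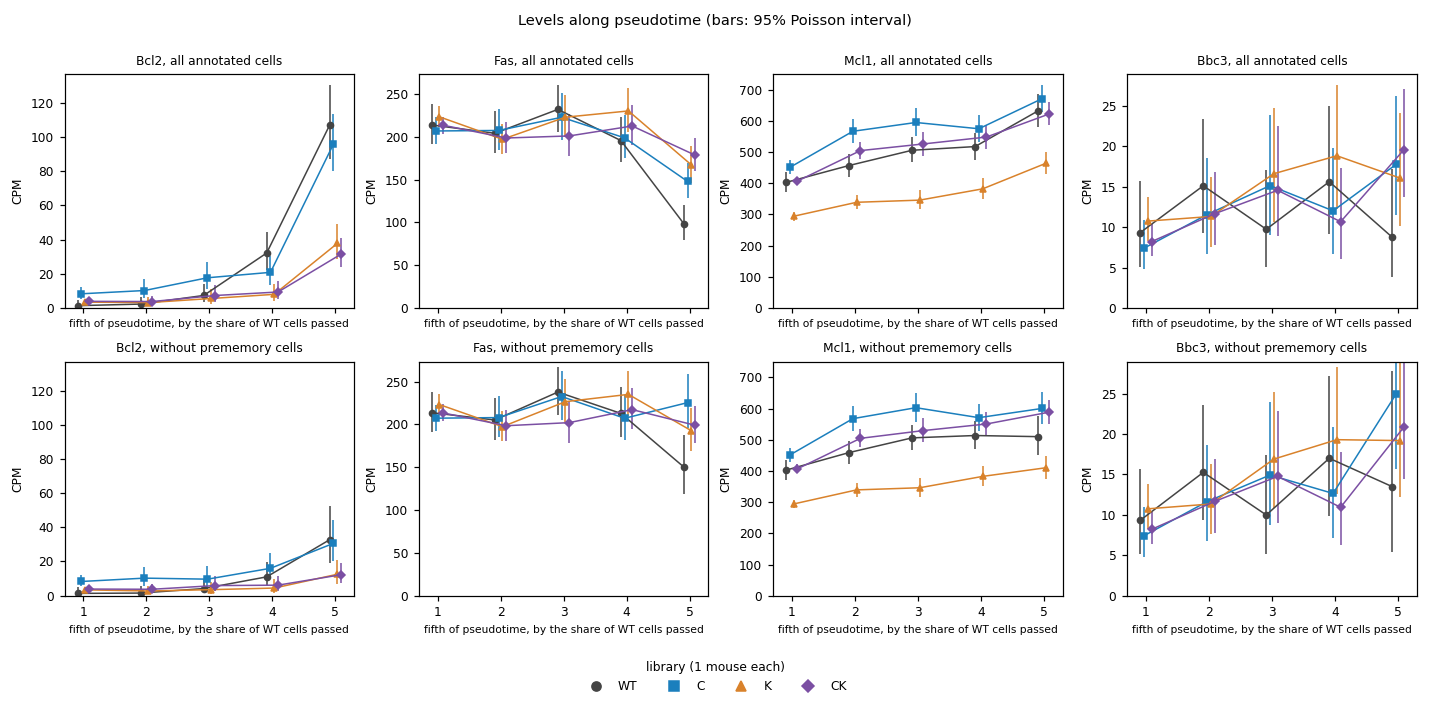
Levels of Bcl2, Fas, Mcl1 and Bbc3 in CPM (y axis) in 5 successive parts of pseudotime (x axis) for the 4 libraries, with 95% Poisson intervals, for all annotated cells (top) and without prememory cells (bottom). Bcl2 in the last part of WT is 107 CPM in the upper row and 32.7 CPM in the lower row, and Mcl1 of K lies below the other libraries throughout.

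Genotype ratios over WT were taken in CB and in CC, and a member was called where the ratio passed 1.5-fold and its counting interval excluded 1. The 3 comparisons in each subtype share the WT library. In CB, C had 1 member higher and 1 lower of 8, against 3.20% of 7872 genes higher and 3.0% lower. The higher member was Bcl2, at 12.5 CPM (26 UMIs, 10 of them in Scrublet doublets) against 1.04 CPM in WT (1 UMI), a log2 ratio of 3.59 (0.98 to 8.95). The 1 UMI of WT also lay in a Scrublet doublet. Without Scrublet doublets this call was lost because Bcl2 then had fewer than the 20 UMIs required, so this alternative does not show whether the difference shrank. Markers of non-GC B cells, which are rich in Bcl2, summed to 181, 238, 130 and 177 CPM in CB of WT, C, K and CK, highest in C, and T cell markers to 30.1, 20.2, 31.3 and 35.9 CPM, lowest in C, and the part of other cells' RNA in these few UMIs was not tested. The lower member was Bcl2l1, at 8.66 against 18.7 CPM (18 UMIs each), a log2 ratio of -1.11 (-2.14 to -0.08).

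K had no member called in CB among the 7 with enough UMIs, in a background of 2.82% of 8298 genes higher and 15.5% lower. CK had none of 8 either, with 5.13% of 8792 genes higher and 5.77% lower. Bcl2 of CK was past 1.5-fold, at a log2 ratio of 2.29, with an interval of -0.32 to 7.66, and Bcl2l11 of K at -0.71, with an interval of -1.40 to 0.01. Bak1 of CK was just short of 1.5-fold, at 72.8 (65.3 to 81.0) CPM against 107 (87.4 to 130) CPM in WT and a log2 ratio of -0.56 (-0.88 to -0.22). For K, Mcl1 was at 274 (257 to 292) CPM against 391 (352 to 432) CPM, a log2 ratio of -0.51 or -0.36 relative to the median of all genes.

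In CC, no member was called in C, where 1.96% of 8161 genes were higher and 2.03% lower, and none in K, where 1.96% of 8302 genes were higher and 16.4% lower. CK had 1 lower of 8, against 3.0% of 8530 genes higher and 2.74% lower. This was Bcl2l11, at 14.4 (10.2 to 19.7) CPM in CK against 24.1 (17.5 to 32.3) CPM in WT, a log2 ratio of -0.74 (-1.40 to -0.09). The C and K libraries lay between, at 14.9 (9.88 to 21.5) and 18.0 (13.1 to 24.1) CPM, and the intervals of all 3 overlapped that of WT. Relative to the same ratio in non-GC B-like cells, where Bcl2l11 was at 16.8 CPM in WT and 10.0 in CK, the log2 ratio was 0.0006.

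Bax was above WT in CC of all 3 other libraries, by log2 ratios of 0.34 (0.11 to 0.57), 0.51 (0.30 to 0.72) and 0.34 (0.13 to 0.55) in C, K and CK, and the WT level of 155 (137 to 174) CPM lay below the intervals of 176 to 217, 202 to 239 and 179 to 213 CPM. Relative to the median of all genes the K ratio was 0.65. In T-like cells the Bax ratios over WT were 0.10 (-0.03 to 0.23), 0.25 (0.12 to 0.37) and 0.23 (0.11 to 0.35) in C, K and CK. In non-GC B-like cells they were -0.08 (-0.22 to 0.06), 0.20 (0.04 to 0.36) and 0.06 (-0.11 to 0.22). Bbc3 was also above WT in CC, by 0.73, 0.58 and 0.55, with intervals that all reached below 0, and by 0.72 in K relative to the median of all genes. Fas in CC differed from WT by 0.04 (-0.16 to 0.24), -0.07 (-0.26 to 0.12) and -0.09 (-0.28 to 0.10) in C, K and CK. These intervals cover counting error only and, with 1 mouse per genotype, do not bound a difference between genotypes. Relative to the median of all genes, the sign for K turned, to 0.07.

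**Figure D4:**
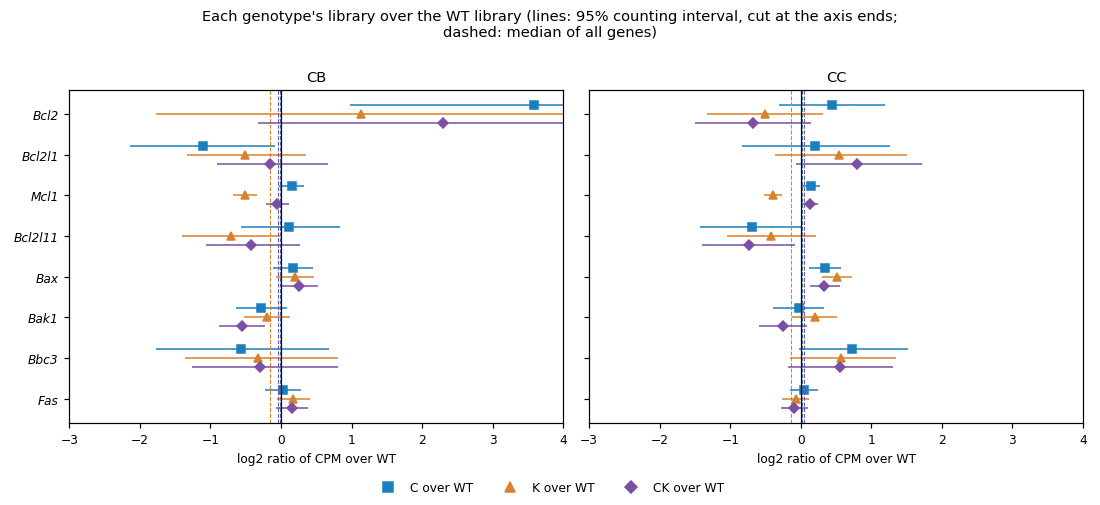
Log2 ratio of CPM over the WT library (x axis) of each member (y axis) in CB (left) and CC (right) for C, K and CK, with 95% counting intervals and dashed lines at the median of all genes. Fas lies near 0 in both, Bax in CC lies at 0.34, 0.51 and 0.34, and Mcl1 is below 0 in K.

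Across all 12 classes, Mcl1 was lower in K than in WT in each, by log2 ratios between -0.81 and -0.10, and the interval excluded 0 in 10 of them. These include T-like and non-GC B-like cells as well as GC B cells. Relative to the median of all genes in each class, Mcl1 of K was lower in 11 of 12, with a median of -0.27. Bax of K was higher than WT in 11 of 12 classes, and in 12 of 12 after the median of all genes was taken off. Bax of CK was higher in 11 of 12 and Bax of C in 10 of 12, all against the same WT library. In C and CK, Mcl1 lay above WT in 11 and 9 of 12 classes by medians of 0.10 and 0.09. Fas showed no such run, with K above WT in 6 of 12 classes.

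**Figure D5:**
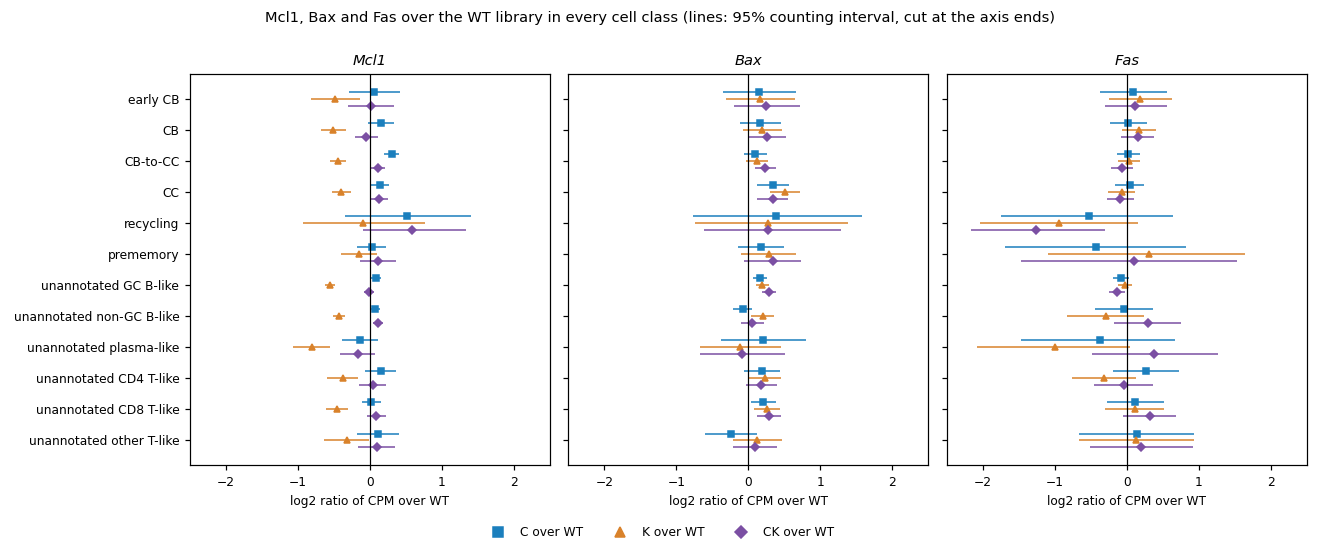
Log2 ratio of CPM over the WT library (x axis) of Mcl1, Bax and Fas in 12 cell classes (y axis) for C, K and CK, with 95% counting intervals. Mcl1 of K is below 0 in all 12 classes, T-like cells included, and Bax of K is above 0 in 11 of them.

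T-like cells were compared with non-GC B-like cells in the same libraries. Of 8 members, 3 were higher and 1 lower, with 12.7% of 9621 genes higher and 12.9% lower. Bbc3 was higher by a mean log2 ratio of 2.08 ± 0.35, Bcl2l1 by 1.88 ± 0.86 and Fas by 1.04 ± 0.17. Mcl1 was lower by -1.74 ± 0.02, the tightest ratio of the 8 over the 4 libraries. With cells thinned to 2000 UMIs, Fas was no longer called, at 0.75. That alternative left out the shallower cells, and in CK it kept 1543 of 3164 T-like and 215 of 2074 non-GC B-like cells. Bcl2 was higher in each library, by 0.57, 0.66, 0.77 and 0.90, and WT alone did not pass 1.5-fold. Within T-like cells, Bcl2 was higher in the CD8 T-like than in the CD4 T-like cells (364 ± 24.3 against 121 ± 10.4 CPM), and Fas was lower (32.3 ± 2.995 against 63.3 ± 10.4 CPM), without overlap between libraries. Fasl, which encodes Fas ligand and was picked out after its values were seen, had 116 UMIs in T-like cells, 1 in annotated GC B cells and 1 in non-GC B-like cells.

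Genes whose levels ran most like each member were ranked over 42 sums of class and library with at least 50 cells, which share depth and libraries, by Pearson's r of log2(CPM + 10). Bcl2 ran most like Ccr7 (r = 0.97), Fam169b and Ifi203. Fas ran most like S1pr2 (r = 0.98), Ildr1 and Amz2. Ccr7 and S1pr2 were among the markers used to name the unannotated classes, so their ranks are not independent of those classes. Mcl1 was closest to Atp6v0b (r = 0.92), Dmxl1 and Pxk, Bax to Ppie (r = 0.92), Bola3 and Pfdn2, and Bak1 to Arpc3 (r = 0.93), Oaz1 and Sdhb. Bcl2l11 was closest to Sec61b (r = 0.81), Lman1 and Manf, Bbc3 to Socs1 (r = 0.72), Ppp1r18 and Aes, and Bcl2l1 to Adk (r = 0.64), Acot7 and Fam173b. Between members, r was -0.83 for Bcl2 and Fas, 0.85 for Bak1 and Fas and -0.71 for Bcl2 and Bak1, and 0.04 for Bcl2 and Mcl1.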

How the data were processed

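Per the labels and file headers, the authors aligned the reads with Cell Ranger (3.0 in the labels, 3.0.2 in the matrix headers) to mm10 and deposited UMI counts per gene and barcode. They also deposited subtype names and, as a score, pseudotime ranks, made with Seurat and slingshot for cells under 2500 genes and 8% mitochondrial UMIs. Ranks were turned into positions by the share of WT cells passed and cut into 5 parts. All cells under 8% mitochondrial UMIs, annotated or not, were clustered together (scanpy 1.11.5, Leiden of igraph 0.11.9, resolution 1.5) without member, pathway, immunoglobulin or mitochondrial genes. Scrublet doublets were kept. Counts were summed per class and library (Python 3.11.15, numpy 2.4.6, scipy 1.17.1, pandas 2.3.3) with exact Poisson and conditional binomial intervals. UMIs had to number 20 over both sums for a gene to be called, and a sum of 0 was set at 3 UMIs in ratios. The ratio procedure was tested on simulated data. All 8 members are named, with the 3 highest and 3 lowest pathway genes from CB to CC and the 3 genes most alike in level (mean of at least 20 CPM). Members and lists were chosen with earlier results of these data known. Alternatives covered scaling, doublets, thinning, depth, mitochondrial share, minimum UMIs and left-out libraries. No p-value was computed, since cell names and pseudotime come from the same cells and each genotype has 1 library.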

Additional observations from a re-analysis of the deposited data

Results flagged for a closer look

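Unannotated cells of clusters that received no name took part in none of the comparisons, and all 8 members were detected there above the limit that a count of 0 allows. These were 351, 497, 325 and 734 cells of WT, C, K and CK, of which 51.9%, 55.1%, 49.2% and 50.4% were called doublets by Scrublet. Mean levels over the 4 libraries were 137 CPM for Bcl2, 11.3 CPM for Bcl2l1 and 402 CPM for Mcl1. Bcl2l11 was at 20.4 CPM and Bbc3 at 15.6 CPM. Bax was at 191 CPM, Bak1 at 56.8 CPM and Fas at 89.6 CPM. Bcl2 ranged from 122 CPM in WT to 169 CPM in C, and Fas from 77.6 CPM in C to 98.7 CPM in WT. The part of doublets in these levels was not tested.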

How the results depend on the processing

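Of 120 counts of called members under an alternative, 87 stayed within 1.5 times the reported count and 33 moved, and of 960 log2 ratios of single members 900 moved by less than the spread between libraries, or their interval, and 1 reversed. The cause of a moved count was not tested. From CB to CC the count of 1 became 0 without Scrublet doublets, with cells thinned to 2000 UMIs, under 5% mitochondrial UMIs and at a minimum of 50 UMIs, and was 1 to 2 with a library left out. The GC B count of 7 became 4 under 5% mitochondrial UMIs. The pseudotime count of 1 became 2 with immunoglobulin and mitochondrial genes out of the total, 1 to 2 with a library left out (2 without C) and 0 without prememory cells, an alternative chosen after seeing the data.
In CB, the count of 2 for C became 1 without doublets, with cells of 2500 or more genes added, under 5% mitochondrial UMIs and relative to non-GC B-like cells, and 0 when thinned or at 50 UMIs. The count of 0 became 2 for K with those cells added, and 1 for CK when thinned or relative to T-like or non-GC B-like cells. In CC, the count of 0 for C became 1 without doublets, with those cells added, under 5% mitochondrial UMIs and relative to T-like or non-GC B-like cells. For K it became 1 under median-of-ratios scaling, with those cells added, under 5% mitochondrial UMIs and relative to non-GC B-like cells. The count of 1 for CK became 0 when thinned or relative to T-like or non-GC B-like cells, and 2 with those cells added or under 5% mitochondrial UMIs. The ratio counted as reversed was that of Bcl2l11 in CC of CK over WT, which came to 0.0006 relative to non-GC B-like cells. It reversed by sign only, and the value is practically no difference. In non-GC B-like cells the log2 ratio of Bcl2l11 in CK over WT was -0.74 (-1.41 to -0.11). Cells of 2500 or more genes have no pseudotime rank, so that alternative was not run there. Depth limits Bcl2, Bcl2l1, Bcl2l11 and Bbc3 in CB and CC, with 59 to 240 UMIs over the 4 libraries. Comparisons of classes were paired within each library, whereas comparisons of genotypes could not be paired or replicated because each genotype has 1 library.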
